A study of Mus musculus with 15 samples.

Results

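The interferon-induced genes are described here in the colon of mice fed heme: 39 listed genes whose transcripts rise when a cell receives an interferon signal. The list was drawn up with earlier results of these data known, so shares of members set beside shares of all genes are descriptions. Its genes were matched by name, to probe sets whose array annotation gives a single gene symbol equal to a listed gene. Of the 39 genes, 36 had such a probe set, out of 18194 genes measured in this way in the whole series. Oas1g and Ifi44 had none, and Isg15 had only a probe set annotated with several symbols, so none of these 3 is given a value. Of the 36, 23 passed a filter on low signal and were tested, among 9257 tested genes in all. The other 13, Ifit2, Oas2, Oas3, Ddx58, Dhx58, Cxcl9, Cxcl10, Gbp6, Igtp, Iigp1, Mx1, Mx2 and Usp18, exceeded a signal of 20 (4.322 on the log2 scale, called the floor below) on fewer than 6 of the 15 arrays.

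All mice were male C57BL/6 mice of 11 weeks on a diet high in fat (40% of energy) and low in calcium, which both groups shared. The 6 control mice ate this diet alone for 14 days, and the 9 heme mice ate it with 0.5 umol/g heme, the iron porphyrin that gives red meat its colour. RNA came from scrapings of the opened colon of each mouse, so every value is a mixture over the cells of a scraping. The control mice carry the numbers 1, 2, 3, 4, 6 and 7, and control mouse 5 is not analysed here. Each mouse was hybridised to its own array, and the median log2 level per array was 3.11 to 3.24. Control mouse 2 was rich in stromal transcripts, with a mean log2 level of 9.45 over 6 fibroblast markers against 5.34 to 6.82 in the other controls, and control mouse 4 was low in 5 position markers of the distal colon, at 2.53 against 4.84 to 6.60.

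Interferons are secreted alarm proteins. Type I interferons (the alpha and beta forms) and type III interferons (the lambda forms, which act mainly on epithelia) signal through JAK1 and TYK2 to a complex that includes STAT2 and IRF9 and binds the interferon-stimulated response element (ISRE) of target promoters. Interferon-gamma, made chiefly by T cells and natural killer cells, signals through JAK1 and JAK2 to the gamma-activated site (GAS) of its target promoters, and it induces the transcription factor IRF1. The intestinal mucosa keeps a low level of interferon-induced transcripts in the absence of overt infection.

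Promoters of 4 members show the elements by which these genes are recognised, and they are printed because Ifit1 was among the largest falls with heme while Gbp2, Gbp7 and Igtp stood highest in a single heme mouse. Each is the 120 bases before the annotated start, on the plus strand, from RefSeq promoters of GRCm38.p6. The capitals mark a match to the ISRE core GAAANNGAAA or to the GAS element TTCNNNGAA, searched on both strands. The regions are chr19:34640769-34640888 for Ifit1, chr3:142620543-142620662 for Gbp2, chr3:142530216-142530335 for Gbp7 and chr11:58199436-58199555 for Igtp.
Ifit1: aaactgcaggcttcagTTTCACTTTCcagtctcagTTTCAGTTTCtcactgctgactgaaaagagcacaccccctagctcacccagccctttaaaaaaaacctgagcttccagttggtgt
Gbp2: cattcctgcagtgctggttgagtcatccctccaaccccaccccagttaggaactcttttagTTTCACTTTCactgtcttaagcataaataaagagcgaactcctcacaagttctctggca
Gbp7: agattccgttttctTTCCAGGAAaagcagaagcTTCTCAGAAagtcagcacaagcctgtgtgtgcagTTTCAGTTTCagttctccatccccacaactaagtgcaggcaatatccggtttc
Igtp: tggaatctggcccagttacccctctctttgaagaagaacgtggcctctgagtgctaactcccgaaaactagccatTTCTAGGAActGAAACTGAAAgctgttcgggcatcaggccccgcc
The Ifit1 promoter held 2 ISRE matches and no GAS match, Gbp2 held 1 ISRE match, Gbp7 held 1 ISRE match and 2 GAS matches, and Igtp held 1 of each. The same pair of ISRE matches lies before the neighbouring gene Ifit1bl2, whose start is 145 bases from that of Ifit1 on the opposite strand, so these matches are counted in both promoters. RefSeq promoters, from 250 bases before to 50 bases after a start, were at hand for 28 of the 36 measured members, 34 promoters in all. The ISRE core was in 16 of these 34 promoters (47.1%) against 3.44% of all 32851 promoters, and the GAS element in 8 (23.5%) against 8.30%. Both were in 4 (11.8%) against 0.454%, and they overlapped in 1 promoter, that of Bst2. A match is a description of letters in this window and not a bound site.

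Across all 15 mice, 8 of the 23 tested members were lower with heme and 1 was higher in limma, where the Benjamini-Hochberg adjusted p over all tested genes was under 0.05. Over all tested genes 26.4% were lower and 27.2% higher, so 8 of 23 lies near the background and by itself says nothing particular about the members. The median log2 fold change, heme minus control, was -0.54 over the 23 members and -0.01 over all tested genes. The members that fell were Ifit1bl2, Ifit1, Irf7, Parp14, Irf1, Dtx3l, Ifih1 and Ifi35, and Oasl1 rose.

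Heme mouse 6 stood apart in these genes. Its mean log2 level over the 36 measured members was 7.30, while the other 8 heme mice lay between 5.31 and 5.69 and the 6 controls between 6.05 and 6.24. The comparisons of the tested genes are given with this mouse and, in most cases, without it. Without it, 18 of the 23 members were lower and none was higher by limma at the same threshold (1, Oasl1, was higher at an unadjusted p under 0.05). The median was then -0.60, while 26.4% of all tested genes were lower and 27.4% higher. All 8 members lower with every mouse were among the 18, and 10 were lower only without heme mouse 6. The mouse was set aside for its level of these very genes, so the larger count is a description of the other 14 mice and no independent evidence. With no filter on signal, 8 of all 36 members were lower with all mice (15.2% of all genes) and 21 of 36 without heme mouse 6 (14.9%). No member was higher in these unfiltered fits by limma, where 15.9% and 15.8% of all genes were. At an unadjusted p under 0.05, 1 and 2 members were higher, and the nearest to the threshold were Oasl1 in the first (adjusted p = 0.0571) and Cxcl9 in the second (0.0853). Without heme mouse 6, control mouse 2 and control mouse 4, 16 of the 23 were lower (26.5% of tested genes) and none higher by limma (25.6% of tested genes), with 18 lower and 1 higher at an unadjusted p under 0.05.

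**Figure D1:**
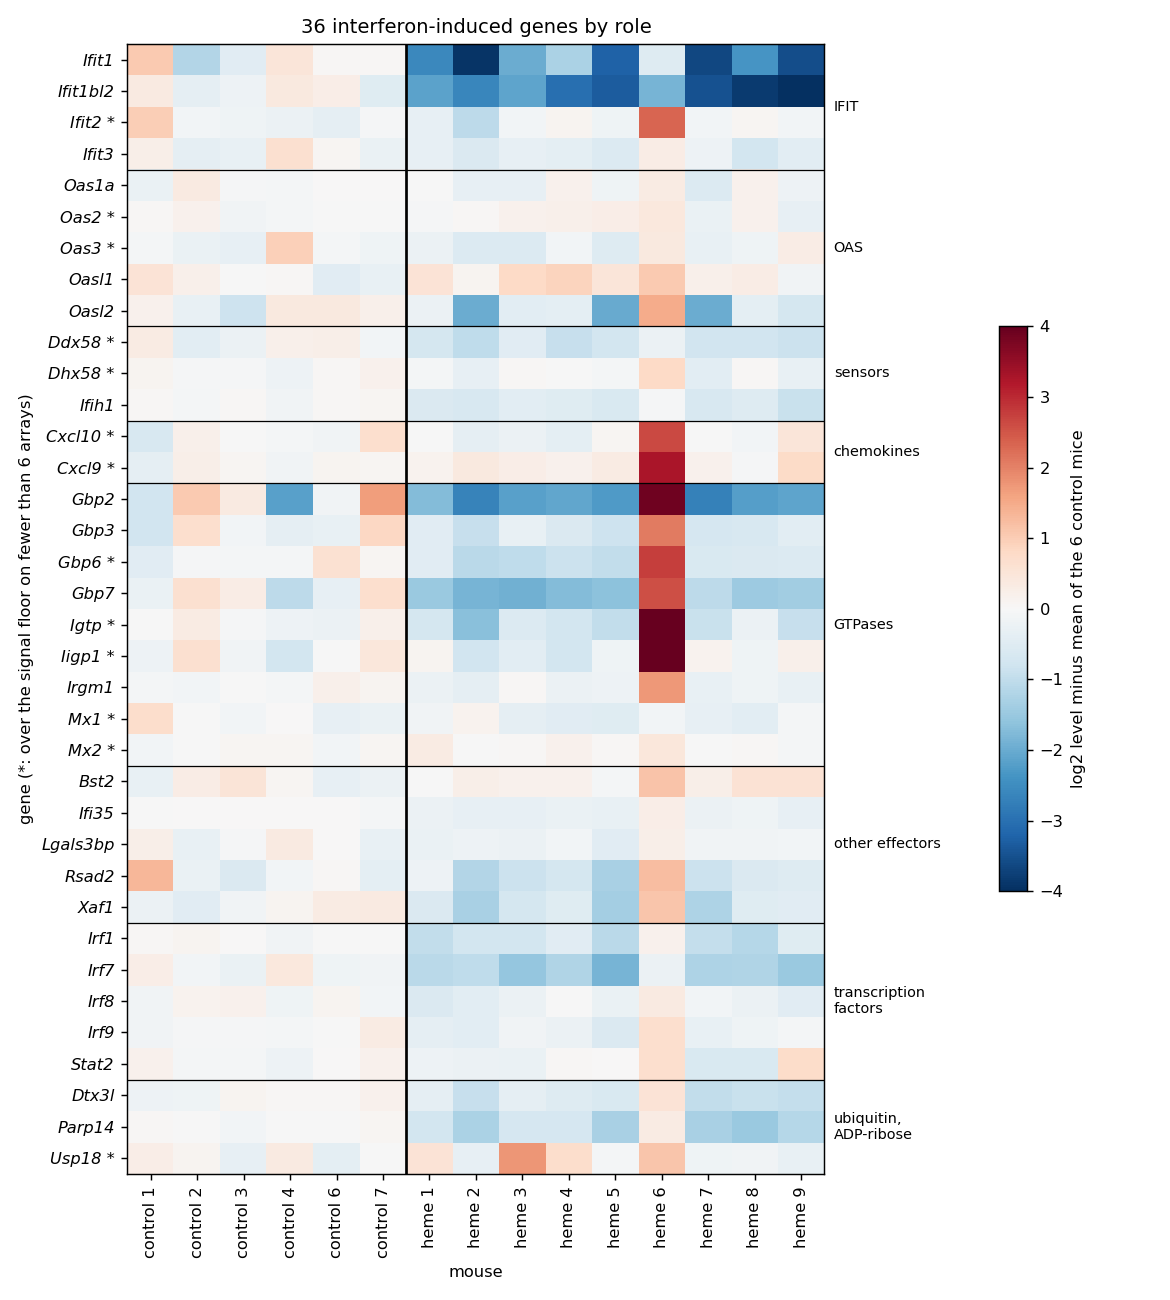
Each row is 1 of the 36 measured members, grouped by role, and each column 1 mouse; colour is the log2 level minus the mean of the 6 control mice, and differences beyond 4 log2 units share the end colours. Blue prevails in the heme columns other than heme mouse 6, whose column is red for most GTPases and both chemokines.

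The IFIT proteins bind viral RNA that lacks the cap marks of the host, and this family held the largest falls. Ifit1bl2, a close relative of Ifit1, had log2 levels of 7.47, 7.99 and 8.35 in the controls (lowest, median and highest, as in the triplets that follow), of 3.85, 4.77 and 5.84 in the 8 heme mice other than mouse 6, and of 6.10 in heme mouse 6. All 9 heme mice lay under all 6 controls, which held for no other member and for 8.93% of tested genes. The log2 fold change was -2.94 ± 0.33 (standard error; limma adjusted p = 3.58e-06), a 7.70-fold lower level by the probe set used. The second probe set of Ifit1bl2, over the floor on 13 arrays, gave a difference of -2.02. By the probe set used, 2 of the 9 heme mice were at or under the floor, so the size of the fall is uncertain. Probe sets of close relatives can bind each other's transcripts and the member that changed is to that extent uncertain. Ifit1 stood at 5.85, 7.06 and 8.06 in the controls and at 3.08, 4.10 and 5.74 in the 8 other heme mice. Heme mouse 6, at 6.51, lay within the controls, and the other 8 heme mice lay under all of them. Ifit1 fell by 2.57 ± 0.49 on the log2 scale (limma adjusted p = 4.61e-04), and by 2.82 ± 0.42 without heme mouse 6 (7.02e-05). In 4 of the 9 heme mice Ifit1 was at or under the floor, so the size of its fall is uncertain. Ifit3, which partners other IFIT proteins, was at -0.36 ± 0.16 (0.0759) and reached -0.44 ± 0.14 without heme mouse 6 (0.0178). Ifit2 was under the floor in every mouse except heme mouse 6, at 5.40.

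The OAS proteins make short 2-5A chains on sensing double-stranded RNA and so switch on RNase L. Of the 3 tested, none was lower with all mice by limma at either an adjusted or an unadjusted p under 0.05, and 1, Oasl2, was lower without heme mouse 6. Over all tested genes 26.4% were lower in either fit. Oas1a was at 9.34, 9.61 and 9.98 in the controls and at 9.08, 9.43 and 9.79 in the 8 other heme mice, and the groups overlapped. Its difference was -0.10 ± 0.13 (limma adjusted p = 0.517), and -0.16 ± 0.12 without heme mouse 6 (0.273). Oasl1, an OAS-like protein that restrains translation of Irf7, was the member that rose. Its levels were 6.71, 7.19 and 7.71 in the controls and 7.04, 7.57 and 8.08 in the other 8 heme mice, with 8.22 in heme mouse 6. The groups overlapped, and 4 of the 9 heme mice lay over all controls. The rise of 0.47 ± 0.18 passed narrowly (0.0393) and did not pass without heme mouse 6 (0.40 ± 0.17, 0.0645). It also missed the threshold when control mouse 3, 4, 6 or 7 or heme mouse 1, 3, 4 or 5 was left out on its own. Oasl2 spread widely among heme mice: mice 2, 5 and 7 lay between 5.98 and 6.01, the remaining 5 other heme mice between 7.29 and 7.77, and heme mouse 6 at 9.46, against 7.16 to 8.39 in the controls. Its difference was -0.74 ± 0.45 (limma adjusted p = 0.178), and -1.01 ± 0.34 without heme mouse 6 (0.022). Oas2 and Oas3 were under the floor in all 15 mice.

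The cytosolic RNA sensors Ifih1 (MDA5), Ddx58 (RIG-I) and Dhx58 (LGP2) detect viral RNA, and MDA5 and RIG-I start interferon production. Ifih1, the only one tested, had a narrow spread: 10.17, 10.35 and 10.40 in the controls and 9.42, 9.72 and 9.88 in the 8 other heme mice, which all lay under the controls. Heme mouse 6, at 10.25, lay within them. Ifih1 fell by 0.54 ± 0.09 (limma adjusted p = 2.04e-04), a 1.45-fold lower level, and by 0.60 ± 0.07 without heme mouse 6 (7.34e-06). Ddx58 lay near or under the floor, above it in 3 controls and in no heme mouse. With no signal filter it was at -0.72 ± 0.13 (limma adjusted p = 4.11e-04), and at -0.78 ± 0.12 without heme mouse 6 (1.14e-04). The 8 other heme mice, at 3.19 to 3.75, were all under the controls, at 3.79 to 4.56. Dhx58 exceeded the floor in heme mouse 6 alone, at 4.51.

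Cxcl9 and Cxcl10 are the chemokines that call CXCR3-bearing T cells, and neither passed the filter. Cxcl10 was at 3.30, 3.91 and 4.63 in the controls and at 3.56, 3.89 and 4.44 in the 8 other heme mice, mostly under the floor and overlapping. In heme mouse 6 it was at 6.60, 4.48-fold above the highest of the other heme mice. Cxcl9 was under the floor in the 14 other mice and at 5.49 in heme mouse 6, at least 2.25-fold higher than in them, taking them at the floor.

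Guanylate-binding proteins (Gbp2, Gbp3, Gbp6, Gbp7) and immunity-related GTPases (Igtp, Iigp1 and their regulator Irgm1) attack the vacuoles of intracellular pathogens. The interferon-induced GTPases also include the antiviral Mx proteins. None of the 4 tested GTPases was called by limma with all mice, nor was any at an unadjusted p under 0.05, and all 4 were lower without heme mouse 6. Of all tested genes, 26.4% were lower in either fit. Gbp2 varied among the controls more than any other member: 6.63, 8.42, 7.73, 5.21, 7.25 and 9.06 in control mice 1, 2, 3, 4, 6 and 7. The 8 other heme mice were tightly grouped, with a lowest, median and highest level of 4.68, 5.19 and 5.64, and 5 of them lay under all controls. Heme mouse 6 reached 11.28, above every other mouse. The fold change was -1.56 ± 0.88 (limma adjusted p = 0.145), and -2.24 ± 0.45 without heme mouse 6 (7.44e-04). Gbp7 followed the same order, at 4.81, 5.86 and 6.53 in the controls, at 3.92, 4.28 and 4.80 in the 8 other heme mice, and at 8.43 in heme mouse 6. Those 8 mice all lay under the controls, with a difference of -1.11 ± 0.57 with every mouse (0.11) and -1.57 ± 0.24 without heme mouse 6 (8.33e-05). In 4 heme mice Gbp7 was at or under the floor.

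Gbp3, at 7.05 in heme mouse 6 against 4.05 to 4.69 in the other heme mice, was at -0.30 ± 0.39 (limma adjusted p = 0.535) and at -0.60 ± 0.21 without that mouse (0.0283). Irgm1, a regulator of the other immunity-related GTPases, was well measured and nearly level: 8.24, 8.29 and 8.55 in the controls and 8.00, 8.13 and 8.38 in the 8 other heme mice. Heme mouse 6 was at 10.10. The Irgm1 difference was 0.003 ± 0.25 with every mouse (0.993) and -0.22 ± 0.07 without it (0.0174). Of the GTPases that were not tested, Iigp1, Igtp and Gbp6 were far higher in heme mouse 6 than in any other mouse. By the probe set used, Iigp1 was under the floor in the 14 other mice and at 9.37 in heme mouse 6, at least 33.0-fold higher than in them, again taking them at the floor. Its second probe set was over the floor on 3 arrays and at 9.50 in heme mouse 6. Igtp was at 4.21 to 4.77 in the controls, at 2.78 to 4.19 in the 8 other heme mice and at 8.96 in heme mouse 6, at least 25.0-fold higher than in those 8 mice taken at the floor. Gbp6 was also under the floor in those 8 mice and at 7.04 in heme mouse 6, at least 6.59-fold higher. Mx1 and Mx2 showed no such signal, at 3.74 and 2.75 in heme mouse 6, both under the floor. Mx1 exceeded the floor only in control mouse 1, at 4.55. Probe sets of Gbp genes, like those of the IFIT and OAS families, can bind transcripts of close relatives.

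**Figure D2:**
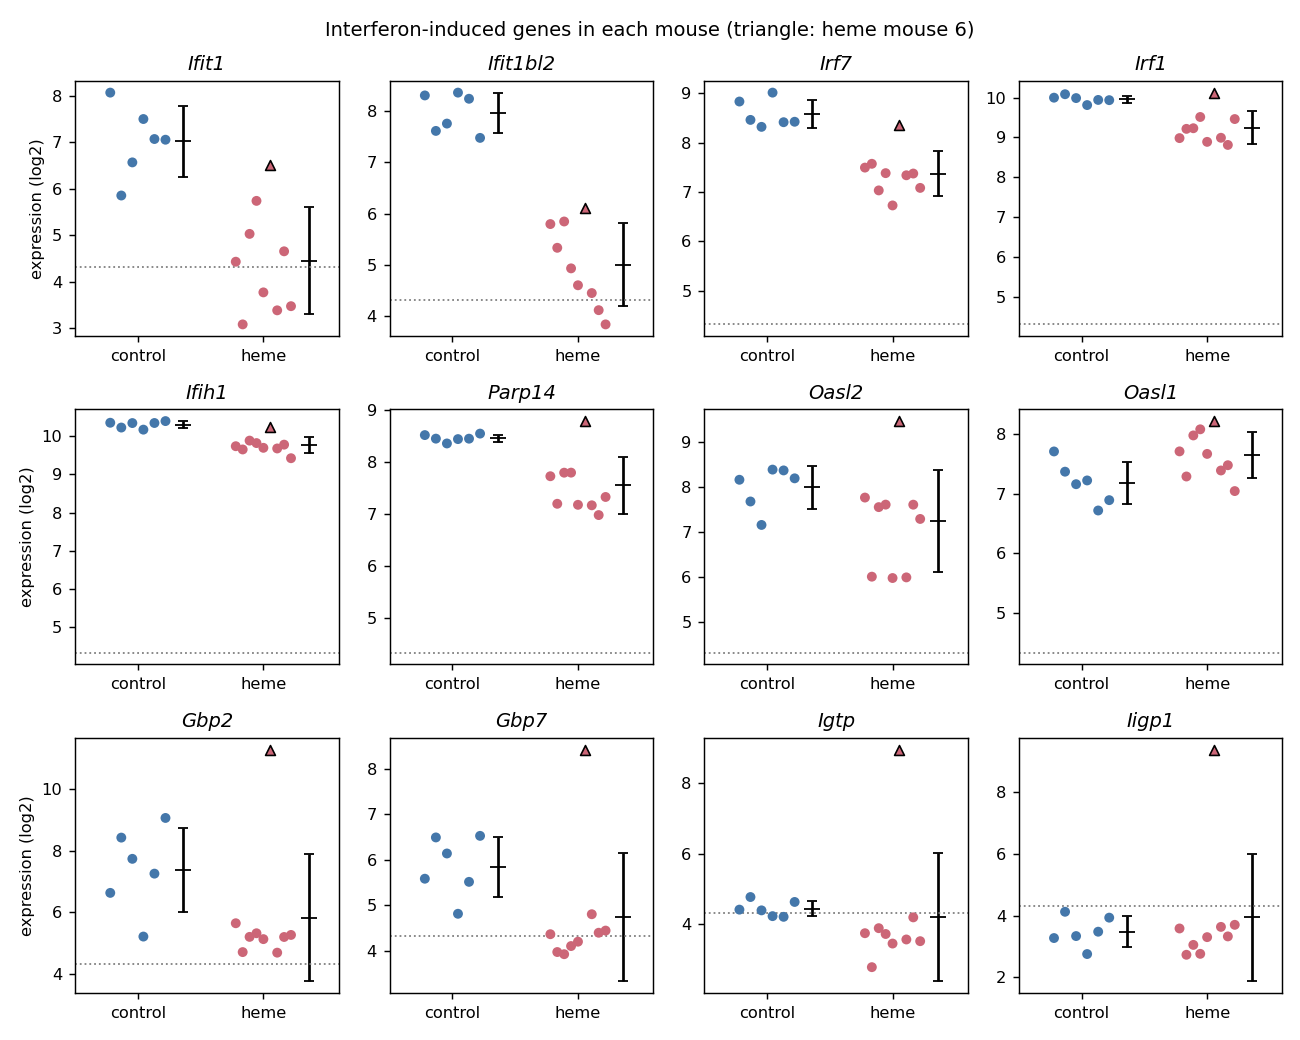
Each panel plots the log2 level (vertical axis, own range) of 1 member in each control and heme mouse, with heme mouse 6 as a triangle, the mean and SD of each whole group beside the points, and the floor of 4.322 as a dotted line. Ifit1bl2 separates all heme mice from the controls, Irf7, Ifih1 and Parp14 separate all heme mice but mouse 6, and in Gbp2, Gbp7, Igtp and Iigp1 heme mouse 6 lies above every other mouse.

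The other effectors were Rsad2 (viperin, which makes a chain-terminating nucleotide), Bst2 (tetherin, which holds budding virus at the cell surface), Xaf1 (an antagonist of the inhibitor of apoptosis XIAP), Ifi35 and the secreted glycoprotein Lgals3bp. Of these 5, 1 was lower with all mice and 3 without heme mouse 6, against 26.4% of all tested genes in either fit. Xaf1 was at 5.39, 5.81 and 6.20 in the controls and at 4.47, 5.18 and 5.37 in the 8 other heme mice, which all lay just under the controls, while heme mouse 6 was at 6.93. The difference was -0.61 ± 0.30 (limma adjusted p = 0.0957), and -0.82 ± 0.18 without heme mouse 6 (0.00173). Rsad2 was at 4.36, 4.73 and 6.26 in the controls and at 3.62, 4.15 and 4.74 in the 8 other heme mice, with its highest level in control mouse 1 and the next in heme mouse 6 (6.15). Its difference was -0.55 ± 0.35 (0.194), and -0.77 ± 0.26 without heme mouse 6 (0.0198). Ifi35 fell by only 0.21 ± 0.08 (limma adjusted p = 0.0366), and by 0.27 ± 0.04 without heme mouse 6 (1.36e-04). The 8 other heme mice, at 10.02 to 10.19, all lay under the controls, at 10.27 to 10.38. The Ifi35 call was lost on leaving out any single control except mouse 7 and any single heme mouse except mice 6 and 8. Bst2 was at 0.34 ± 0.18 (0.119) and Lgals3bp at -0.16 ± 0.11 (0.256), and neither passed without heme mouse 6 either.

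The transcription factors carry the interferon signal to its target genes, and several are induced by it. Of the 5 tested, 2 were lower with all mice and 4 without heme mouse 6, against 26.4% of all tested genes in either fit. Irf7, the factor that amplifies type I interferon production, was at 8.32, 8.44 and 9.01 in the controls and at 6.73, 7.36 and 7.57 in the 8 other heme mice, with no overlap. Heme mouse 6, at 8.35, lay at the lower edge of the controls. Irf7 fell by 1.20 ± 0.19 (limma adjusted p = 9.85e-05), a 2.30-fold lower level, and by 1.33 ± 0.14 without heme mouse 6 (3.58e-06). Irf1, the factor induced by interferon-gamma, was at 9.81, 9.96 and 10.08 in the controls and at 8.81, 9.10 and 9.51 in the 8 other heme mice, again with no overlap, and at 10.12 in heme mouse 6. It fell by 0.71 ± 0.16 (limma adjusted p = 0.00154), and by 0.82 ± 0.11 without that mouse (2.21e-05). Stat2 and Irf9, partners in the factor that binds the ISRE, moved little. Stat2 was at 6.14, 6.31 and 6.52 in the controls and at 5.72, 6.13 and 7.07 in the 8 other heme mice, with heme mouse 9 (7.07) slightly above heme mouse 6 (7.02). The Stat2 difference was -0.05 ± 0.19, with a 95% interval of -0.46 to 0.36 (limma adjusted p = 0.835; 0.504 without heme mouse 6). Irf9 was at -0.18 ± 0.15 (0.319) and Irf8, a factor best known in myeloid cells, at -0.21 ± 0.12 (0.143). Both were lower without heme mouse 6, Irf9 by 0.29 ± 0.09 (0.0128) and Irf8 by 0.28 ± 0.09 (0.0205).

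Parp14, an ADP-ribosyltransferase, and Dtx3l, a ubiquitin ligase that pairs with the ADP-ribosyltransferase Parp9, both fell. Parp14 was at 8.36, 8.46 and 8.55 in the controls and at 6.98, 7.26 and 7.80 in the 8 other heme mice, which all lay under the controls, while heme mouse 6, at 8.79, lay over them. The fall was 0.91 ± 0.21 (limma adjusted p = 0.00208), and 1.07 ± 0.13 without heme mouse 6 (1.10e-05). Dtx3l, at 7.42, 7.65 and 7.79 in the controls and at 6.62, 6.86 and 7.25 in the 8 other heme mice, fell by 0.57 ± 0.19 (0.0194), and by 0.71 ± 0.11 without heme mouse 6 (1.46e-04). Heme mouse 6 again lay over the controls, at 8.15. Usp18, the protease that strips ISG15 from proteins and dampens type I receptor signalling, exceeded the floor only in heme mouse 3, at 4.96.

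**Figure D3:**
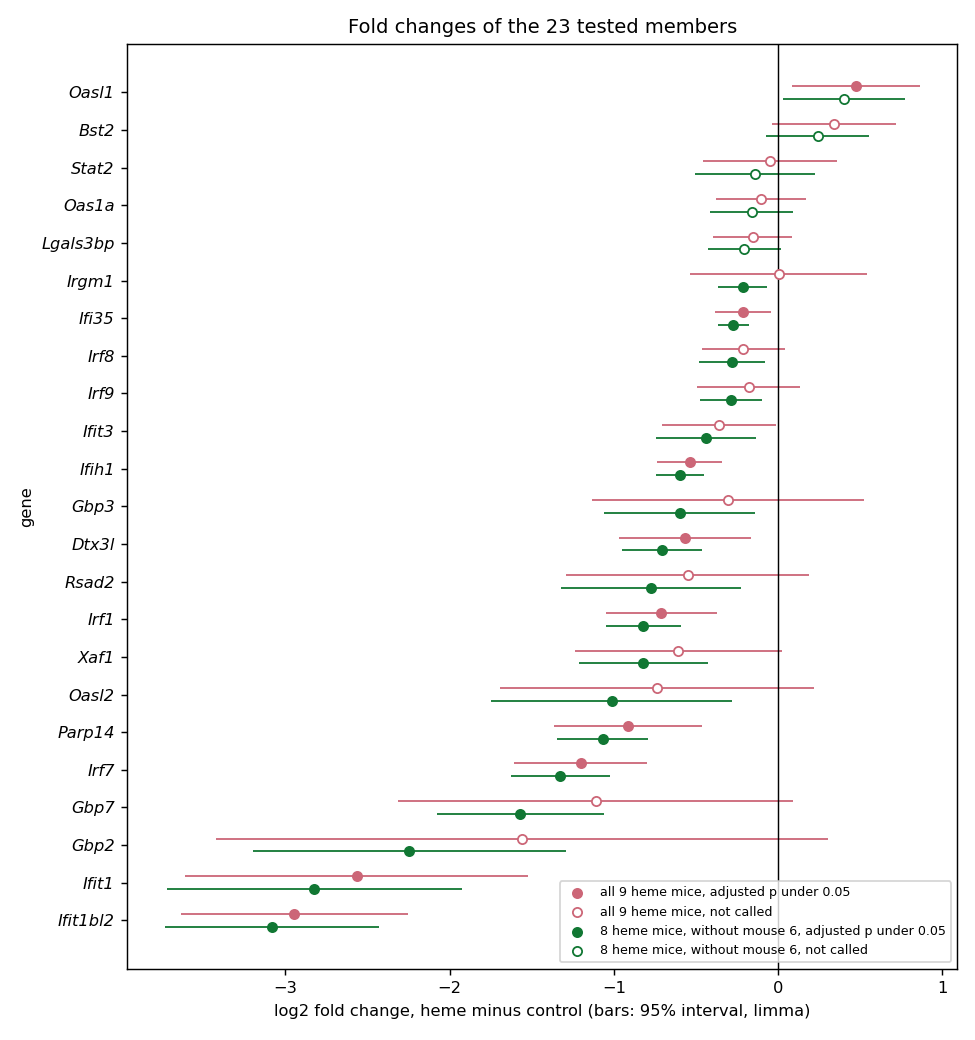
Log2 fold changes, heme minus control, of the 23 tested members with 95% intervals (limma), for all 9 heme mice and for the 8 heme mice without mouse 6; filled points have an adjusted p under 0.05. Leaving out heme mouse 6 narrows the intervals of Gbp2, Gbp7, Irgm1, Xaf1 and Parp14 and turns 10 open points into filled ones, and that of Oasl1 into an open one.

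The 8 heme mice other than mouse 6 all lay under all 6 controls in 12 of the 36 members (5.96% of all genes): Ifit1, Ifit1bl2, Ddx58, Ifih1, Gbp7, Igtp, Xaf1, Ifi35, Irf1, Irf7, Dtx3l and Parp14. Heme mouse 6 was the highest of the 9 heme mice in 33 of the 36 (11.1% of all genes), the exceptions being Mx1, Stat2 and Usp18. It was the highest of all 15 mice in 23 of the 36 (4.07% of all genes) and above all controls in 25 (20.7%). It lay within the controls in 10, and under them in 1, Ifit1bl2. The position of heme mouse 6 thus ran from under all controls in Ifit1bl2, through the control range in Ifit1, Irf7 and Ifih1, to several log2 units above them in Igtp and Iigp1. Heme mouse 6 was singled out by its level of these same genes. The counts in this paragraph therefore describe the mice, and set beside the shares of all genes they are no independent evidence.

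The members were split by the interferon to which they are best known to respond, a division that is not strict: 11 respond strongly to interferon-gamma and 25 chiefly to type I and III interferons. Heme mouse 6 lay above all controls in 11 of the 11 and in 14 of the 25, against 20.7% of all genes. Its level exceeded the median of the other 8 heme mice by a median of 2.67 log2 units over the 11 and of 0.70 over the 25, with every level under the floor taken at the floor. As a mean over the 11 genes, heme mouse 6 was at 8.57, the controls at 5.38 to 6.28 and the other heme mice at 4.91 to 5.38. As a mean over the 25, it was at 6.74, the controls at 6.12 to 6.49 and the other heme mice at 5.49 to 5.92. For the 11 genes the lowest control, mouse 4, lay level with the highest of the other heme mice, while for the 25 the groups did not overlap. The controls did not order alike in the classes: control mice 2 and 7 were highest in the interferon-gamma class, and control mice 1 and 4 in the type I and III class. The split was made with these results known and was not tested.

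**Figure D4:**
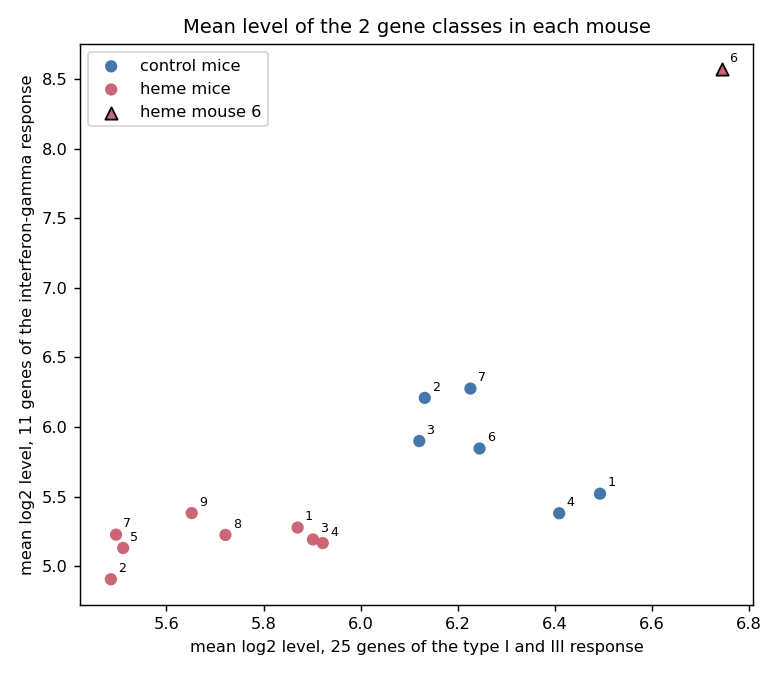
Each point is 1 mouse, with the mean log2 level of 25 genes of the type I and III response on the horizontal axis and of 11 genes of the interferon-gamma response on the vertical axis, and mice labelled by number. The 8 other heme mice sit at the lower left, the controls to their right, and heme mouse 6 at 8.57 on the vertical axis, over every other mouse on both axes.

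Outside the members, heme mouse 6 lay between the groups or with the controls in some transcripts that differed by diet. Slpi, a protease inhibitor made by the epithelium, was at 9.31 in it, with controls from 4.49 to 5.41 and the other heme mice from 10.71 to 12.19. Ereg, an EGF family ligand, was at 4.63, within the controls (2.87 to 5.17) and under the other heme mice (6.23 to 7.39). Mt4, which rose with heme (2.52 ± 0.46, limma adjusted p = 3.32e-04), was at 3.35 in heme mouse 6. That level was under the floor, as in the controls (2.70 to 3.05), and the other heme mice were at 4.26 to 6.94. These values were chosen because heme mouse 6 differed there from the other heme mice, by a rule on the size of that difference, and the reason for its position was not tested.

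**Figure D5:**
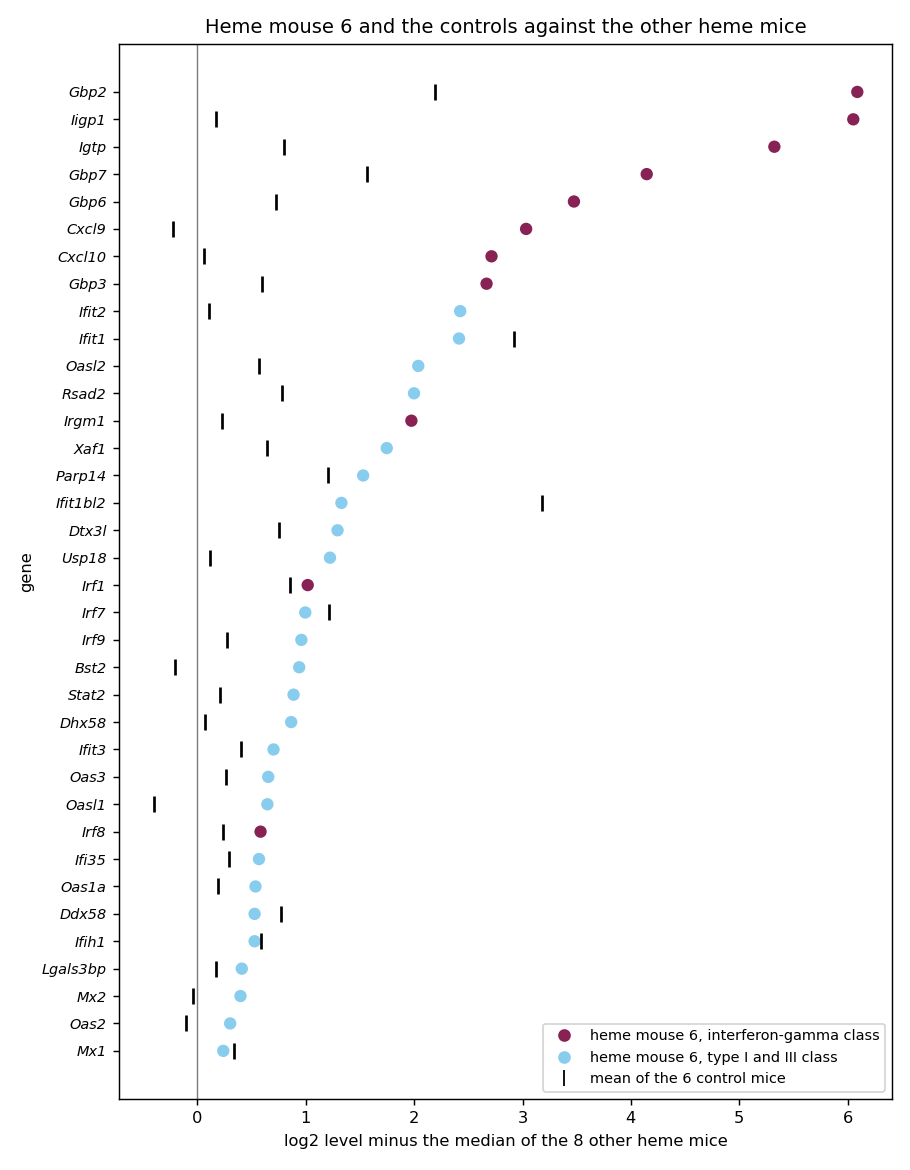
For each of the 36 members, the dot is the log2 level of heme mouse 6 minus the median of the other 8 heme mice, coloured by response class, and the bar is the mean of the 6 controls on the same scale. Differences include levels under the floor. Gbp2, at 6.09, lies furthest to the right, and for Ifit1, Ifit1bl2 and Irf7, among others, the control bar lies to the right of the dot.

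Upstream of the members, none of the 9 interferon genes measured was above the floor on any array, Ifng and Ifnb1 included. Ifng was at 1.97 in heme mouse 6 and reached no more than 2.12 in any mouse, and at these levels the transcripts cannot be told from background. With no signal filter 1 of the 9, Ifna1, was called higher by limma (0.26 ± 0.08, adjusted p = 0.0176, and 0.23 ± 0.08, 0.0303, without heme mouse 6), though it was at 2.39 to 3.01 and so under the floor in every mouse. In these unfiltered fits 15.9% and 15.8% of all genes were higher. Of 15 tested genes of interferon receptors and signalling, 7 were lower and 2 higher with heme, with a median of -0.23, while 26.4% of all tested genes were lower and 27.2% higher. The counts were also 7 and 2 without heme mouse 6, but 3 were lower with probe sets averaged and 4 with the replicate number as a block. Ifnar1, a chain of the type I receptor, was at 5.03, 5.67 and 6.05 in the controls and at 4.50, 5.11 and 5.48 in the 8 other heme mice, overlapping, with heme mouse 6 at 5.09. It fell by 0.60 ± 0.18 (limma adjusted p = 0.00972; 0.0132 without heme mouse 6). With its probe sets averaged Ifnar1 was at -0.27 (limma adjusted p = 0.0287), and with the replicate number as a block it was not called (0.0626). Ifnlr1, the specific chain of the type III receptor, moved the other way, from 5.15, 5.40 and 5.60 in the controls to 5.48, 5.79 and 6.01 in the 8 other heme mice, a rise of 0.37 ± 0.08 (0.00129), and of 0.38 ± 0.08 without heme mouse 6 (0.00129). The kinases Jak1 (-0.32 ± 0.06), Jak2 (-0.21 ± 0.06) and Tyk2 (-0.24 ± 0.09) fell by little, with adjusted p of 2.13e-04, 0.00432 and 0.0348 in limma. Without heme mouse 6 Jak1 (3.59e-04) and Jak2 (0.00546) were still lower, and Tyk2 was not called (0.0587). Socs3, a feedback inhibitor of cytokine receptors, rose, with all 9 heme mice over all controls: 6.27, 6.55 and 6.76 in the controls against 7.22, 7.94 and 8.46 in the 8 other heme mice and 7.87 in heme mouse 6 (1.39 ± 0.17, 8.56e-06, and 1.91e-05 without heme mouse 6). Ifngr1, a chain of the interferon-gamma receptor, was at -0.17 ± 0.08 (0.0635), and at -0.19 ± 0.08 without heme mouse 6 (0.0436). In these receptor and signalling genes heme mouse 6 was the highest of 15 mice in 1 of 16 measured, against 4.07% of all genes.

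Of 13 tested genes that sense nucleic acids upstream of interferon, 4 were lower and 1, Myd88, was higher, with a median of -0.05, against 26.4% of all tested genes lower and 27.2% higher. Without heme mouse 6, 4 were lower and none higher by limma, with Myd88 higher at an unadjusted p under 0.05 (adjusted p = 0.0582). Unc93b1, which carries Toll-like receptors to the endosome, separated the groups, with controls at 6.79 to 7.43, the other heme mice at 5.78 to 6.27 and heme mouse 6 at 6.44. It fell by 0.98 ± 0.12 (limma adjusted p = 6.54e-06), and by 1.03 ± 0.11 without heme mouse 6 (4.06e-06). Tlr3, the endosomal receptor for double-stranded RNA, fell by 0.28 ± 0.09 (0.0145; 0.0158 without heme mouse 6), but it was not called with its probe sets averaged (-0.14, limma adjusted p = 0.209) or with the replicate number as a block (0.0534). Tbk1, the kinase that activates IRF3, fell by 0.27 ± 0.06 (0.00117), and by 0.29 ± 0.06 without heme mouse 6 (5.98e-04).

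Genes of class I antigen processing, which interferon-gamma induces as well, showed the same arrangement of mice. Of 12 tested, 5 were lower and none higher by limma with all mice, and 9 were lower without heme mouse 6, with medians of -0.37 and -0.55, against 26.4% of all tested genes lower in either fit and 27.2% and 27.4% higher. None was higher at an unadjusted p under 0.05 in either fit. Psmb8, the immunoproteasome subunit LMP7, was at 7.97, 8.50 and 8.71 in the controls, at 5.33, 5.97 and 7.03 in the 8 other heme mice and at 9.59 in heme mouse 6. It fell by 1.91 ± 0.49 (limma adjusted p = 0.00394), and by 2.29 ± 0.25 without heme mouse 6 (3.82e-06). The peptide transporter subunit Tap2 (-0.87 ± 0.18, limma adjusted p = 7.61e-04; 3.87e-06 without heme mouse 6) and the loading factor Tapbp (-0.85 ± 0.11, 2.06e-05; 4.30e-08 without it) fell too, and for Tapbp heme mouse 6, at 11.51, also lay under all controls (11.58 to 11.77). The class I heavy chain H2-K1 was nearly level, at 12.21 to 12.32 in the controls and 12.13 to 12.39 in the other heme mice (0.03 ± 0.05, 0.592), but it was at -0.36 when its probe sets were averaged (limma adjusted p = 3.43e-04). Of 4 tested class II genes none was lower or higher by limma, with or without heme mouse 6 and at an adjusted or an unadjusted p under 0.05.

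A further list of interferon-induced genes outside the 39 gave 14 lower and 1 higher of 32 tested, and 22 lower and none higher without heme mouse 6 by limma (Ifitm3 was higher there at an unadjusted p under 0.05), with medians of -0.39 and -0.59. Over all tested genes 26.4% were lower in either fit, and 27.2% and 27.4% higher. Ccl5, a chemokine of cytotoxic lymphocytes, was at 5.52, 6.00 and 6.60 in the controls, whereas every heme mouse lay under the floor, a level at least 3.27-fold lower with heme (limma adjusted p = 2.17e-09, and 2.82e-09 without heme mouse 6). Heme mouse 6, at 3.57, did not stand apart for Ccl5. Ifi27, a mitochondrial and nuclear envelope protein, fell by 1.12 ± 0.14 (8.75e-06; 6.22e-06 without heme mouse 6), again in all 9 heme mice. The helicase Ddx60 was at 6.97, 7.88 and 8.32 in the controls, at 5.94, 6.49 and 7.17 in the 8 other heme mice and at 8.31 in heme mouse 6. It fell by 1.02 ± 0.32 (limma adjusted p = 0.0131), and by 1.22 ± 0.24 without heme mouse 6 (6.57e-04).

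Markers of the cells that make or receive interferons moved with these genes in part. In such scrapings fewer cells of a type and less RNA per cell cannot be told apart. The mean log2 level of 11 markers of T cells and intraepithelial lymphocytes was 3.42 to 3.82 in the controls, 2.73 to 2.93 in the other heme mice and 2.93 in heme mouse 6. Of these 8 were under the floor on every array, and the 1 tested, the protease Gzma, was lower with heme (-3.59 ± 0.24, limma adjusted p = 2.43e-08), at 4.22 in heme mouse 6 and 6.58 to 8.02 in the controls. Natural killer markers had means of 2.56 to 3.01, 2.54 to 2.90 and 2.66 in the same order, and of 5 measured 3 were under the floor on every array. The 1 tested, the receptor chain Klrd1, was lower with heme (-1.49 ± 0.19, limma adjusted p = 1.55e-05), and every heme mouse lay under the floor, at least 1.69-fold lower. With no signal filter, 1 of the 5 was lower and 1 higher by limma, against 15.2% and 15.9% of all genes. Eomes and Ncr1 were then higher at an unadjusted p under 0.05. Macrophage and monocyte markers (9 genes) had means of 4.47 to 6.38, 4.74 to 5.41 and 4.85, and B and plasma cell markers (6 genes) 3.91 to 6.34, 4.21 to 5.84 and 4.59. All 6 dendritic cell markers and all 5 neutrophil markers were under the floor on every array. Epithelial markers (10 genes) had level means, at 12.39 to 12.58, 12.47 to 12.62 and 12.49, though 3 of the 10 were higher and 1, Epcam, was lower (-0.20 ± 0.04, limma adjusted p = 0.00125). Over all tested genes 27.2% were higher and 26.4% lower. In each of these lists heme mouse 6 lay inside the range of the 14 other mice. Smooth muscle markers (8 genes) had means of 4.95 to 8.16 in the controls, 3.93 to 5.39 in the other heme mice and 4.34 in heme mouse 6. All 5 tested were lower with heme, against 26.4% of all tested genes. The part of cell composition in the lower levels of the interferon-induced genes was not tested.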

How the data were processed

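Colon scraping RNA of 15 mice was measured on 1 Affymetrix mouse expression array each. Each deposited value is the log2 expression of 1 probe set, computed by the authors with GCRMA 2.22.0, per the submitters' processing notes; GCRMA models background from probe sequence and scales the arrays to each other, which flattens differences near background. The sources used here do not give its settings or any detection calls. The number of arrays limits the precision.

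Of 45101 probe sets, 34958 had 1 symbol in the array annotation, 932 had several and 9211 were not listed; only those with 1 symbol stood for genes, each gene by the probe set of highest mean level across the 15 arrays. Genes over a signal of 20 (log2 4.322) on at least 6 arrays were tested with limma 3.58.1 (lmFit, eBayes) in R 4.3.3, heme minus control, with Benjamini-Hochberg adjustment over 9257 genes and a threshold of 0.05. The procedure was tested on simulated data. Fold changes carry standard errors, and "at least" marks a fold against the floor. The control and heme numbers do not pair mice in the labels or the data.

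The members, the gene lists and their split by role and response were chosen with earlier results of these data known. Full values are given for the 2 tested members of each role with the largest change and for Ifit1, Irf7, Stat2, Gbp2 and Cxcl10, and those of each other list for its 3 largest called changes plus Ifnar1, Ifngr1, Ifnlr1, Psmb8 and H2-K1. Outside the lists, named genes are those where heme mouse 6 lay farthest from the other heme mice. Other filters, probe set means, scalings, variance models, covariates and left-out mice were tried as alternatives.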

Additional observations from a re-analysis of the deposited data

Results flagged for a closer look

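Single mice lay far from the rest of their group in several genes. The measure is the gap between the highest or lowest mouse and its nearest neighbour, divided by the range of the group, and a value over 0.493 for 9 heme mice or 0.625 for 6 controls is listed here. Chance alone puts about 1 in 20 groups over these limits. Here 100 groups of 50 genes were examined, and 27 cases are listed. The share over all genes was not computed for this measure.

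Heme mouse 6 was the highest heme mouse by this measure in 17 of the 36 members. The gap took these shares of the range in Ifit2 (0.653), Dhx58 (0.619), Cxcl10 (0.710), Cxcl9 (0.755), Gbp2 (0.855), Gbp3 (0.786), Gbp6 (0.838), Gbp7 (0.805) and Igtp (0.771). The other members of this kind were Iigp1 (0.854), Irgm1 (0.817), Ifi35 (0.720), Rsad2 (0.558), Xaf1 (0.633), Irf9 (0.610), Dtx3l (0.587) and Parp14 (0.548). Beyond the members, heme mouse 6 was also apart in the class I antigen processing genes Psmb8 (0.603), Tap2 (0.537) and Tapbp (0.617).

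Among the controls, mouse 1 was highest in Ifit2 (0.775), Mx1 (0.660) and Rsad2 (0.684), genes of the type I and III class, of which Ifit2 stayed under the floor at 4.06. Control mouse 4 was highest in Oas3 (0.793), also under the floor at 3.91. Control mouse 7 was highest in Irf9 (0.725), at 7.28, and lowest in Ifi35 (0.649), at 10.27. Heme mouse 9 was lowest in the interferon-gamma receptor chain Ifngr1 (0.506), at 9.57.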

How the results depend on the processing

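The count of members lower with heme stayed at 7 to 9 of 23 under probe set means, median centring and quantile normalization. It was also in this range under trended robust variance, array weights and the array number as a covariate. Without the signal filter it was 8 of 36, where 15.2% of all genes were lower, and with a floor of 100 it was 7 of 14. That share was not computed for the other settings just named, so their counts have no background beside them. Leaving out heme mouse 6 changed the count of members most. Over all single mice left out the interferon-induced genes lower with heme numbered 7 to 18, but 7 to 8 where heme mouse 6 was kept. The number higher was 0 to 1. Without heme mouse 6, control mouse 2 and control mouse 4, 16 were lower and 0 higher. Without heme mouse 6 and without a filter, an alternative chosen after seeing the data, 21 of 36 were lower and 0 higher; without a filter alone 0 were higher. The median log2 fold change of the interferon-induced genes was -0.23 without a filter, -0.38 with a floor of 100, -0.36 with probe sets averaged, -0.65 without the 3 mice, -0.28 without filter and heme mouse 6, and -0.60 to -0.45 over single mice left out.

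With the replicate number as a block, 6 members were lower and the median was -0.43; the numbers did not pair the mice, since the same-numbered deviations correlated at -0.195 to 0.196. Interferon receptors and signalling genes lower with heme numbered 4 with this block, 3 with probe sets averaged and 6 to 8 over single mice left out. Class I antigen processing genes lower with heme numbered 9 with array weights, 10 without the 3 mice and 5 to 9 over single mice left out. Other interferon-induced genes lower with heme numbered 12 to 22 over single mice left out. The share over all genes was not computed with this block, with probe sets averaged or with array weights.

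The sign turned for Irgm1 (quantile normalization -0.0022, array weights -0.0789, array number -0.0065, without the 3 mice -0.26, single mice left out -0.215 to 0.0479), for Stat2 (single mice left out -0.149 to 0.0201) and for H2-K1 (probe sets averaged -0.36, quantile normalization -0.0301), and the cause was not tested. Oasl1 and Ifi35 lay near the threshold and lost their call without a filter (0.0571 and 0.0563 in limma) and in most fits that left out a mouse. With the replicate number as a block, Dtx3l (limma adjusted p = 0.105) and Ifnar1 (0.0626) lost their call too. Depth cannot be read from these values, and a level near the floor bounds what can be said of Ifit1, Ifit1bl2, Gbp7, Ddx58 and the members that were not tested.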

Other observations

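Among all tested genes, 18 stood over 2 log2 units above the median of the other heme mice in heme mouse 6, and 14 of these were members or belonged to the lists of other interferon-induced and class I genes. Of the 20 genes with the largest such excess, 7 were members and 9 were of those lists. Outside all lists the largest was Ido1, the interferon-gamma induced enzyme that degrades tryptophan. Ido1 was at 8.69 in heme mouse 6, at 3.40, 4.36 and 5.74 in the other 8 heme mice (lowest, median and highest) and at 5.81, 7.59 and 7.78 in the controls, so those 8 mice all lay under the controls and heme mouse 6 over them. Its fold change was -2.36 ± 0.64 with every mouse and -2.83 ± 0.38 without heme mouse 6 (limma adjusted p = 0.0056 and 2.97e-05). Ifit1bl1, a further relative of Ifit1, was at 12.63 in heme mouse 6, 9.82 to 11.05 in the other heme mice and 11.62 to 12.42 in the controls. The nucleoside enzyme Upp1 was 1.97 log2 units above the median of the other heme mice. The fat cell hormone Adipoq and the scaffold protein Ahnak2 exceeded that median by 2.14 and 2.06 but lay within the controls. Adipoq spread widely, and in heme mouse 6 (5.76) it was under heme mice 7 (7.67) and 9 (6.74). Mid1, Mt4 and Igkv9-120 were lower in heme mouse 6 than in the median of the other heme mice, by differences of -2.79, -2.73 and -2.01.

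The controls, which differ in their distal position markers, ordered nearly alike in the interferon-gamma class. The mean of 5 position markers, 2 of them at or under the floor on every array, was 6.60, 6.16, 5.93, 5.53, 4.84 and 2.53 in control mice 7, 3, 2, 6, 1 and 4. The mean of the 11 interferon-gamma class genes in the same mice was 6.28, 5.90, 6.21, 5.85, 5.52 and 5.38. That of the 25 type I and III class genes was 6.23, 6.12, 6.13, 6.24, 6.49 and 6.41, and did not follow this order. Over the 9 heme mice the position markers spanned only 5.47 to 6.02. The likeness of order in the interferon-gamma class was noticed in these data, over 6 mice, and whether position bears on these genes was not tested.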
